A study of Mus musculus with 4 samples.

Results

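Osteopontin is the secreted protein made by the gene Spp1. The account covers Spp1 and the genes of 6 subunits of its receptors, namely Cd44, Itgav, Itgb1, Itgb3, Itgb5 and Itga4. They were chosen by symbol, and all 7 were found in each of the 4 libraries, among 30406 genes that the libraries share.

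Mouse cancer lines named KPCA.A, KPCA.B and KPCA.C, described in the labels as fallopian tube epithelial cells, were grown as omental tumors in C57BL6J mice, the strain they are syngeneic to. Each line gave 1 droplet library with 3′ counting of unique molecular identifiers (UMIs), from 4 pooled tumors and with an age of 8 weeks on the label. A further library came from KPCA ascites, the fluid of the peritoneal cavity, with 9 weeks on the label, and the line behind it is not named. The tumors were digested with collagenase and DNase, no treatment is labelled, the genes engineered in the lines are not spelled out in the labels, and the labels do not say whether the ascites was pooled. With 1 library per group nothing could be tested between groups. Every interval below is a 95% interval for counting error alone, and differences between mice, pools or preparations are not in it. A difference is called where it is at least 2-fold and rests on at least 50 UMIs over both groups.

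Osteopontin is a phosphorylated matrix and signaling protein of the SIBLING family, known from bone and from wounds, and it is made by many carcinomas and by tumor macrophages. An arginine-glycine-aspartate (RGD) motif binds integrins in which the alpha chain Itgav pairs with Itgb1, Itgb3 or Itgb5. A neighboring site, opened when thrombin cuts the protein, binds Itga4 paired with Itgb1, and Cd44, the hyaluronan receptor, is a further reported receptor. Integrins reach the cell surface only as pairs, so the RNA of a single subunit gives no measure of a receptor at the surface.

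The stretch of Spp1 that codes for the RGD site is shown because both groups of integrin receptors act there. It spans coding bases 454 to 531 of the 933 coding bases of transcript ENSMUST00000112748.7 (GENCODE vM21), in frame. The capitals mark codons 160 to 162, which spell R, G and D, and the bases after them lead into the site of thrombin cleavage and Itga4 binding. Of 7 coding transcripts annotated for the gene, 4 hold an RGD codon run, and these 4 all hold the stretch.
Spp1 RGD stretch: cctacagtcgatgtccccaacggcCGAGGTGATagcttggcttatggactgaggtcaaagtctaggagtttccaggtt

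In build GRCm38 the protein-coding gene Spp1 (ENSMUSG00000029304) lies on the plus strand of chromosome 5, from 104435118 to 104441050. Cd44 is on chromosome 2 from 102811141 to 102901665 on the minus strand. Itgav and Itga4 are on the plus strand of the same chromosome, from 83724397 to 83806916 and from 79255426 to 79333123. Itgb1 lies on chromosome 8 from 128685654 to 128733200, Itgb3 on chromosome 11 from 104608000 to 104670476 and Itgb5 on chromosome 16 from 33829665 to 33949338, all on the plus strand. The 3′ counts do not tell splice forms apart, so the standard and variant forms of Cd44 are counted together.

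After filtering, 2648, 2586 and 3098 cells were kept from KPCA.A, KPCA.B and KPCA.C and 2921 from ascites, against about 5000 stated per library. The tumor matrices held 40054369 to 95130645 UMIs, with a median of 7910 to 14660 per kept cell, while the ascites matrix held 7420674 with a median of 2077. Ascites was thus the shallow library. Shares of cells with a UMI are given after cells were thinned to 1000 UMIs. Cells with fewer than 1000 UMIs were left out of these shares, so they cover only the deeper cells of a class. Kept cells of different libraries shared at most 16 barcodes, between KPCA.B and KPCA.C. Clusters were named from marker genes as tumor epithelial-like, macrophage-like and so on, and values are summed over all cells of a class in a library and given as counts per 1000000 UMIs (CPM). All 20 class and library units with at least 50 cells expressed their own class's markers. The only marker at 0 was Krt23, in the tumor epithelial-like cells of KPCA.B. The names came from these same markers, so this is no separate check. Markers of other classes were read too. Duct epithelial-like cells of KPCA.A summed 5838 CPM over 15 tumor epithelial and 5758 CPM over 25 macrophage markers, against 3357 CPM over their own 6. Tumor epithelial-like cells of KPCA.C summed 2959 CPM over macrophage and 1926 CPM over fibroblast markers, against 4240 CPM over their own. The label of fallopian tube epithelial cells fitted only part of each library, since tumor epithelial-like cells were 28.4%, 13.4% and 32.3% of the cells in KPCA.A, KPCA.B and KPCA.C, while 0 of 2921 cells got that name in ascites, which allows up to 0.126% of cells so named (exact Clopper-Pearson). That limit is one on the naming and not on tumor cells, since 16 ascites cells of the unnamed cluster 22 had Krt8 at 781 CPM and Cdkn2a at 511 CPM.

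Tumor epithelial-like cells were the main source of Spp1 in every tumor, and KPCA.C had the most. Their summed level was 7878 CPM (interval 7846 to 7909; 753 cells) in KPCA.A, 2309 CPM (2281 to 2337; 346 cells) in KPCA.B and 15145 CPM (15114 to 15175; 1002 cells) in KPCA.C. The order was KPCA.C over KPCA.A over KPCA.B, with no overlap of the counting intervals. KPCA.C stood 6.56-fold above KPCA.B and 1.92-fold above KPCA.A, and KPCA.A stood 3.41-fold above KPCA.B.

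The gene was on in most of these cells and not only in a few. After thinning, 90.1% of KPCA.A, 67.4% of KPCA.B and 95.7% of KPCA.C tumor epithelial-like cells held a Spp1 UMI, and the median cell held 6, 1 and 11 of its 1000 UMIs. The highest 10% of the thinned cells held 33.6%, 46.9% and 37.6% of the thinned Spp1 UMIs. Left out as under 1000 UMIs were 3, 48 and 21 cells. Different clusters make up the class in the lines, mainly cluster 3 in KPCA.A, 14 in KPCA.B and 2 in KPCA.C, and Spp1 was among the genes used for clustering, so levels by cluster are a description.

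**Figure D1:**
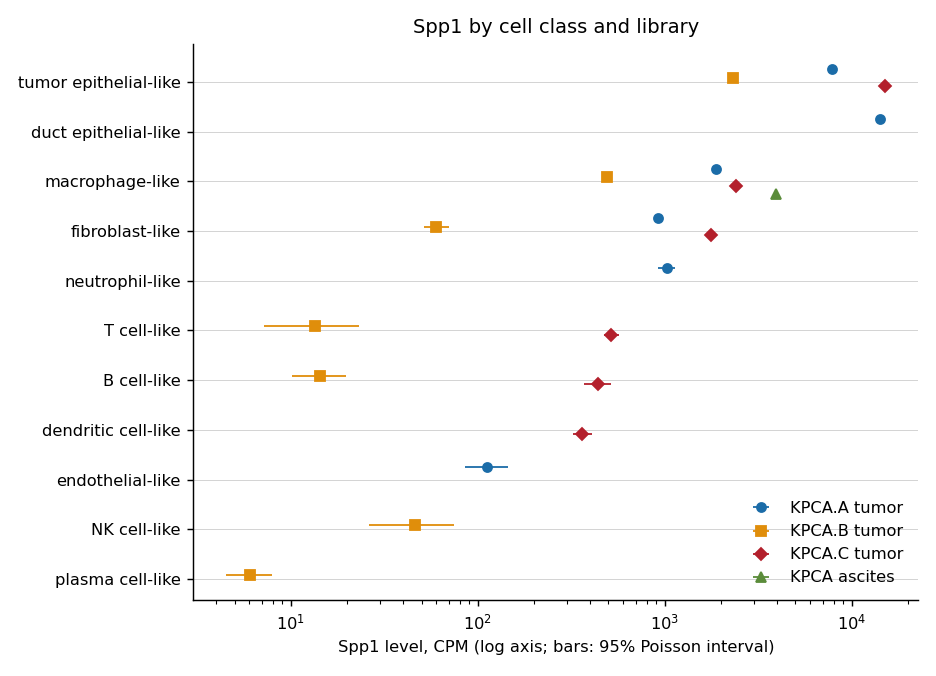
Spp1 level in CPM (log axis) in each cell class with at least 50 cells in a library, with 95% Poisson intervals as bars and the 4 libraries as colored markers. Within each library the epithelial classes and macrophage-like cells lie above the other classes, and KPCA.B lies lowest among the 3 tumors in every class that all of them share.

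Within the tumor epithelial-like cells the Spp1 level also differed by cluster. Cluster 2, in which Pcdh7, Sdc2 and Bmp2 were the leading genes, held 15393 CPM in KPCA.C (952 cells) and 9808 CPM in KPCA.A (32 cells). Cluster 3, led by the stomach-type genes Tff1, Gkn1 and Gkn2, held 7781 CPM in KPCA.A (721 cells), 3102 CPM in KPCA.B (68 cells) and 6935 CPM in KPCA.C (39 cells). Cluster 14, led by Crip1, Spink4 and Muc5b, was read in KPCA.B, at 2093 CPM (272 cells). In cluster 3 alone, KPCA.C was not above KPCA.A: the log2 ratio was -0.17, against 0.94 over the class. KPCA.B remained the lowest line in that cluster too.

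The KPCA.C cells themselves divided when the clusters were made finer. At a Leiden resolution of 2, 692 of the 1002 cells kept the tumor epithelial-like name, with Spp1 at 10486 CPM (10456 to 10516). The other 310 lost it and held 27841 CPM (27762 to 27921). Those 310 were led by Postn, Id3, Mgp, Dpt and Nrep, matrix and mesenchymal genes in part, and held more of the collagen gene Col3a1 (1701 against 413 CPM) and of Dcn (381 against 151 CPM). Their keratin Krt8 was close to that of the 692 (1264 against 1335 CPM). Cdkn2a was higher in the 310 (611 against 443 CPM), and Epcam was at 0.0594 against 10.9 CPM. Among the receptor genes the 310 cells were higher in Itgb3 (63.2 against 31.7 CPM) and Itgb5 (174 against 77.7 CPM). Itgav (208 against 184 CPM), Itgb1 (914 against 799 CPM) and Cd44 (523 against 608 CPM) differed less. At that resolution, which also redrew the class in KPCA.A, the log2 ratio of KPCA.C to KPCA.A was 0.43.

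In KPCA.A, duct epithelial-like cells, which carry bile or pancreatic duct markers, had the highest Spp1 level of that library: 14197 CPM (13928 to 14470) in 79 cells, of which 98.7% held a UMI after thinning. The median cell held 14 of 1000 UMIs. Only 15 such cells were found in KPCA.B and 4 in KPCA.C, at 13047 and 7549 CPM, too few to be compared. Spp1 is known as a marker of duct epithelium in healthy liver and pancreas.

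Macrophage-like cells were the next source. Spp1 was 1870.3 CPM (1835 to 1906; 850 cells) in KPCA.A, 490.5 CPM (476.3 to 505.0; 645 cells) in KPCA.B, 2410.1 CPM (2385 to 2436; 1137 cells) in KPCA.C and 3927 CPM (3879 to 3976; 2660 cells) in ascites. Ascites was highest and KPCA.B lowest, and no counting intervals overlapped. The ratios were 4.91 for KPCA.C over KPCA.B, 3.81 for KPCA.A over KPCA.B and 1.29 for KPCA.C over KPCA.A.

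In KPCA.B the Spp1 of macrophage-like cells came from few cells. After thinning, 12.6% of them held a Spp1 UMI, against 45.1% in KPCA.A, 66.7% in KPCA.C and 70.4% in ascites. The highest 10% of KPCA.B macrophage-like cells held 92.8% of the thinned Spp1 UMIs, against 67.4% in KPCA.A, 48.0% in KPCA.C and 42.5% in ascites. A B-cell-like class, which is not known as a source of Spp1, gave a share of 1.36% in KPCA.B (median of 3293 UMIs per cell against 12150 in macrophage-like cells) and 32.9% in KPCA.C (median of 3980 against 10522). The macrophage-like share stood above that background in both libraries.

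Free or carried tumor-cell RNA was estimated from the keratins, and the estimate differed between the libraries. Krt8 plus Krt18 in macrophage-like cells came to 1.81% of their level in tumor epithelial-like cells in KPCA.A, 0.576% in KPCA.B and 3.39% in KPCA.C. At these shares tumor-cell RNA would bring 142 of the 1870.3 CPM in KPCA.A, 13.3 of the 490.5 CPM in KPCA.B and 514 of the 2410.1 CPM in KPCA.C. With those amounts taken off, KPCA.C stood at 1896 CPM and KPCA.A at 1728 CPM, a log2 ratio of 0.13 in place of 0.37. The estimate was rough. In KPCA.C it came to 1269 CPM in 47 plasma-cell-like cells, above the 482 CPM of Spp1 read there. In B-cell-like cells of KPCA.C it came to 161 of 439 CPM. In ascites macrophage-like cells Krt8 was at 1.53 CPM and Krt18 at 0.767 CPM. Cdkn2a was at 36.3 CPM there (46.5 CPM in cluster 0), above the 7.95 to 10.6 CPM of the tumor clusters 1, 6 and 10. The tumor macrophage cluster 16, with 127 cells, also had Cdkn2a at 45.6 CPM, beside Krt8 at 94.3 CPM and Krt18 at 60.4 CPM. The part of tumor-cell RNA in the ascites value was not tested.

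The makeup of the macrophage class differed as well, with cluster 1 leading in KPCA.A, 10 in KPCA.B, 6 and 1 in KPCA.C and 0 in ascites. Cluster 10, led by Retnla and Lyve1, held Spp1 at 515, 419 and 729 CPM in KPCA.A, KPCA.B and KPCA.C, and 452 of the 645 KPCA.B cells were in it. Cluster 1, led by Mmp13 and Mmp12, held 1857, 1724 and 2626 CPM, from 557, 55 and 455 cells. Cluster 6, led by Gja1, Cd163 and F13a1, held 3160, 1635 and 3106 CPM, from 157, 17 and 495 cells. Within cluster 1 the log2 ratio of KPCA.A to KPCA.B was 0.11 and that of KPCA.C to KPCA.B was 0.61, against 1.93 and 2.30 over the class. Without cluster 10 they were 1.34 and 1.70.

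The clusters with monocyte genes (Ly6c2, Vcan, Ace, Cd177) given here held less Spp1 than clusters 1, 6 and 10 of the same library. Cluster 11.6 of KPCA.B had 5.35 CPM, the cluster led by Ace and Plac8 had 24.2 CPM in KPCA.B against 229 CPM in KPCA.A, and 11.1 had 136 CPM in KPCA.A and 469.9 CPM in KPCA.C. In cluster 16, led by Gdf15, Fbp1 and Ucp1, Spp1 was 1044 CPM in KPCA.A and 1230 CPM in KPCA.C.

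In ascites, Spp1 split by cluster. Cluster 0, with 2021 of the 2660 macrophage-like cells and led by Ear6, Wfdc21 and Slpi, held 4819 CPM. The 7 other named clusters, each with Pf4, Ppbp or Il1r2 among its leading genes, held between 319 and 1126 CPM in 6 cases and 2496 CPM in cluster 4.6, whose 51 cells also read hemoglobin RNA (Hba-a1). Taking cluster 0 out turned the ascites value from above to below KPCA.A (log2 ratio -1.24 against 1.07) and KPCA.C (-1.60 against 0.70). Against KPCA.B it stayed higher, at 0.69 in place of 3.001. Over the class, ascites stood 2.10-fold above KPCA.A, 8.01-fold above KPCA.B and 1.63-fold above KPCA.C. These 3 comparisons share the ascites library.

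**Figure D2:**
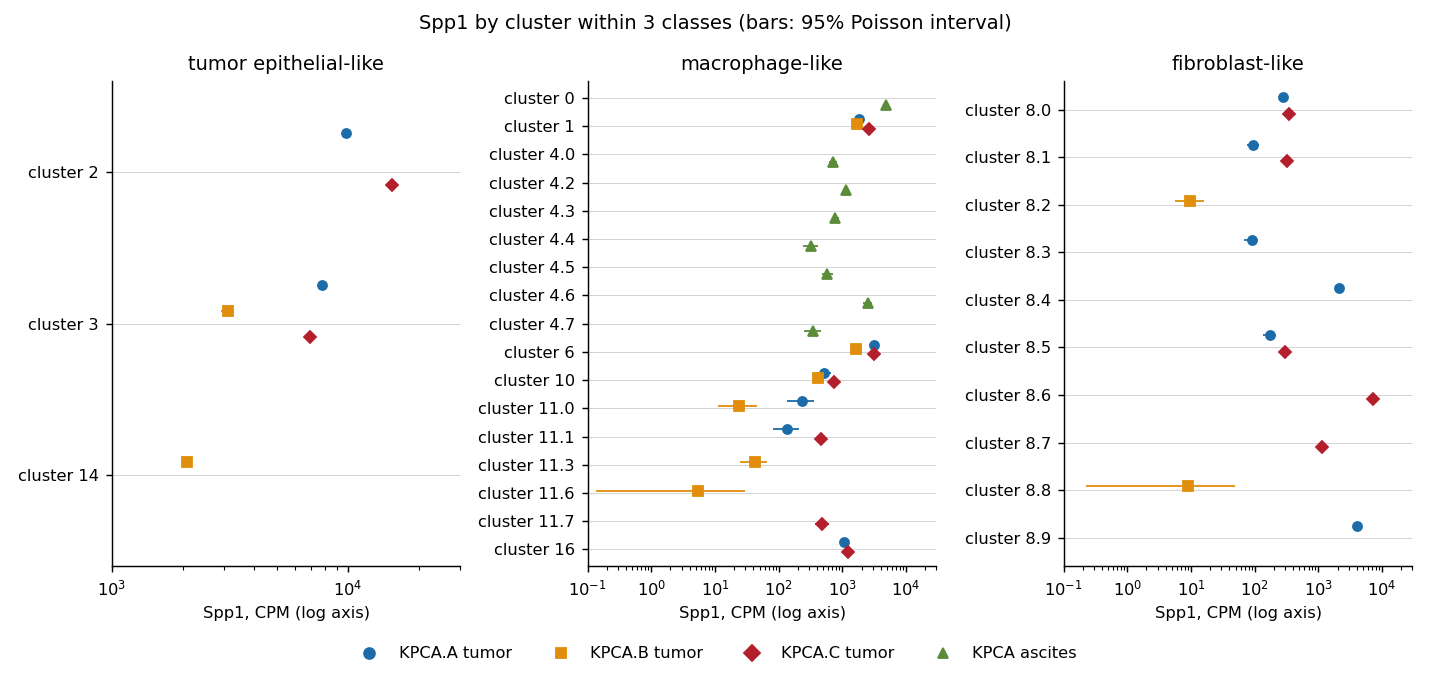
Spp1 level in CPM (log axis) by cluster within the tumor epithelial-like, the macrophage-like and the fibroblast-like class, for clusters with at least 15 cells from a library, with 95% Poisson intervals. In the macrophage panel cluster 0 of ascites is highest at 4819 CPM and cluster 11.6 of KPCA.B lowest at 5.35 CPM, and in the fibroblast panel cluster 8.6 of KPCA.C stands out at 7195 CPM.

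Fibroblast-like cells held Spp1 at 916 CPM (891 to 941; 243 cells) in KPCA.A, 60.1 CPM (51.4 to 69.8; 118 cells) in KPCA.B and 1766 CPM (1736 to 1797; 170 cells) in KPCA.C. KPCA.C was 29.4-fold and KPCA.A 15.2-fold above KPCA.B. Krt8 and Krt18 at 11.5%, 3.07% and 6.14% of their tumor level in KPCA.C, KPCA.B and KPCA.A would carry 1743, 70.9 and 484 CPM. The clusters highest in keratin differed in Cdkn2a. Cluster 8.1 had Krt8 at 325 CPM and Krt18 at 189 CPM over its 74 cells, with Cdkn2a at 3.81 CPM. Its leading genes were Slpi, Msln, Gpm6a and Upk1b, and Msln, Gpm6a and Upk1b were among the mesothelial markers used for naming. Cluster 8.4 had Krt8 at 492 CPM and Krt18 at 323 CPM over its 44 cells, with Cdkn2a at 156 CPM. Both enter these shares, which do not tell keratin made by the cells themselves from carried keratin. The amounts given as carried can therefore be too high. The part of tumor-cell RNA in the class values was not tested. The sum hid a sharp split between clusters. Cluster 8.6, led by Cxcl9, Dio3 and Ptx3 and with Postn at 1362 CPM, held 7195 CPM in 20 KPCA.C cells, with Krt8 at 28.3 CPM. Cluster 8.9, led by the matrix genes Tnc, Ltbp2 and Cthrc1, held 4071 CPM in 19 KPCA.A cells, with Krt8 at 43.5 CPM. In cluster 8.4 of KPCA.A, led by cell-division genes, Spp1 was 2115 CPM with Krt8 at 462 CPM. Clusters 8.0, 8.1, 8.3 and 8.5 stayed between 89.2 and 344 CPM in KPCA.A and KPCA.C, and cluster 8.2, the main one in KPCA.B, at 9.73 CPM.

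Neutrophil-like cells of KPCA.A held 1024 CPM of Spp1 (919 to 1139), on 344 UMIs in 259 cells, an interval that overlapped that of fibroblast-like cells. At their keratin share of 4.82% tumor-cell RNA would bring 379 CPM. Lymphocyte classes read the gene in step with the line: T-cell-like cells had 13.5 CPM in KPCA.B and, in KPCA.C, 519 CPM, and B-cell-like cells 14.4 and 439 CPM. Dendritic-cell-like cells of KPCA.C read 363 CPM, endothelial-like cells of KPCA.A 112 CPM, NK-cell-like cells of KPCA.B 45.9 CPM and plasma-cell-like cells of KPCA.B 6.06 CPM. The keratin shares correspond to 342 of the 519 CPM in the T-cell-like cells of KPCA.C and 13.7 of the 13.5 CPM in those of KPCA.B. In B-cell-like cells they correspond to 161 of the 439 CPM in KPCA.C and 10.02 of the 14.4 CPM in KPCA.B.

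As a share of all Spp1 UMIs in kept cells, tumor epithelial-like cells held 89.2% in KPCA.A, 76.8% in KPCA.B and 93.9% in KPCA.C. Macrophage-like cells held 3.97%, 13.3% and 3.37%. Duct epithelial-like cells added 3.88% in KPCA.A and 8.43% in KPCA.B, from 79 and 15 cells. In ascites the macrophage-like cells, 91.1% of the cells, held 97.8%. These shares move with cell numbers, with RNA per cell and with the naming of clusters. In KPCA.C the tumor epithelial-like share was 48.8% at a Leiden resolution of 2, where the cells led by Postn had no name. With each library clustered alone the share was 55.1%.

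**Figure D3:**
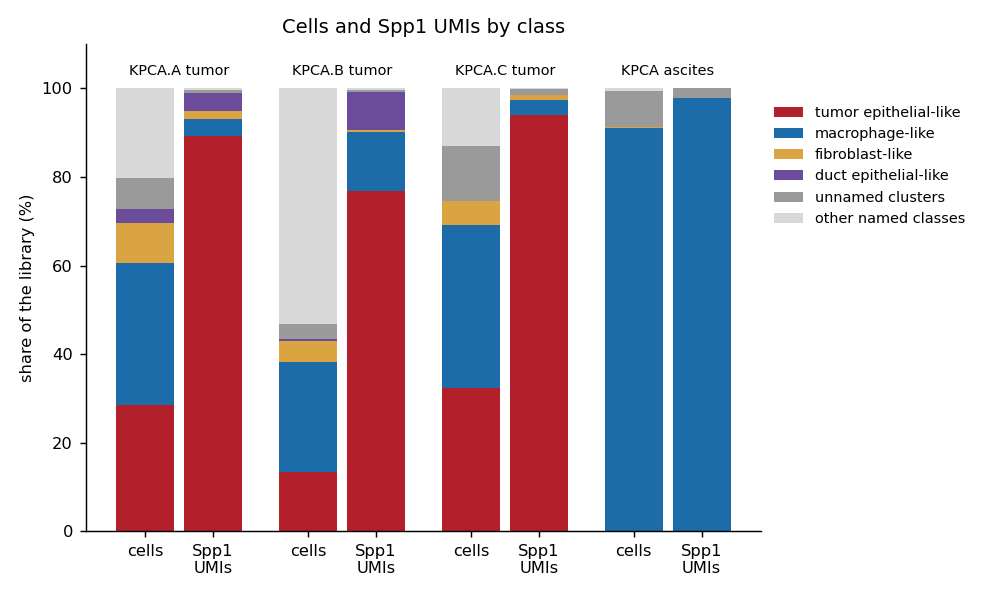
Share of each library's Spp1 UMIs by cell class, as stacked bars in percent, beside the share of its cells in each class (neutrophil-like, lymphocyte and other small classes as other named classes). Tumor epithelial-like cells hold most Spp1 UMIs of the 3 tumors, up to 93.9% in KPCA.C, and macrophage-like cells hold 97.8% in ascites.

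A few unnamed clusters also held Spp1. Cluster 7, with 630 cells of low UMI count led by Gkn1, Gkn2 and Pgc, held 4059, 1036 and 10076 CPM in KPCA.A, KPCA.B and KPCA.C, in the same order as the tumor epithelial-like cells. In ascites, cluster 22 had 16 cells with Spp1 at 3027 CPM, Krt8 at 781 CPM and Cdkn2a at 511 CPM, and was left unnamed because it had too few of the fixed markers. Clusters 17 and 4.1 of ascites held 258 and 307 CPM.

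Each receptor gene had its own spread over the cell types. Cd44 was read in nearly every class, Itga4 in immune classes, Itgb5 in macrophage-like, epithelial and fibroblast-like cells, and Itgb3 in most classes but hardly in macrophage-like, plasma-cell-like and duct epithelial-like cells. The comparisons below are of the same gene between classes, and the highest and lowest are among classes of at least 50 cells in a library. Levels of different genes are not compared.

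Cd44, which also binds hyaluronan, was highest in the neutrophil-like cells of KPCA.A, at 1879 CPM (1735 to 2032). In tumor epithelial-like cells it was 554, 417 and 585 CPM in KPCA.A, KPCA.B and KPCA.C. Fibroblast-like cells had 535, 556 and 476 CPM, and macrophage-like cells 438, 486 and 473 CPM with 297 CPM in ascites. These 3 classes lay within a narrow band, and in KPCA.A the tumor epithelial-like and fibroblast-like intervals overlapped. T-cell-like cells had 315 CPM in KPCA.B and, in KPCA.C, 279 CPM. The lowest levels were in duct epithelial-like (85.8 CPM), B-cell-like (83.3 and 78.5 CPM in KPCA.B and KPCA.C) and endothelial-like cells (31.0 CPM). Within the macrophage class it was highest in the monocyte-gene cluster 11.1, at 1747 CPM in KPCA.A and 1741 CPM in KPCA.C, against 356 to 448 CPM in cluster 1. Spp1 ran the other way in these clusters.

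Itgav, the alpha chain of the RGD-binding pairs, was 224, 187 and 191 CPM in the tumor epithelial-like cells from KPCA.A, KPCA.B and KPCA.C. Fibroblast-like cells had 176, 183 and 163 CPM, and in KPCA.B their interval overlapped that of the tumor epithelial-like cells. Macrophage-like cells had less, at 111, 63.2 and 92.1 CPM, and 26.4 CPM in ascites. T-cell-like cells of KPCA.C had 256 CPM, the highest value of that library, against 127 CPM in KPCA.B. In cluster 9.5, the T-cell-like cluster led by Foxp3, the factor of regulatory T cells, it was 630.1 CPM in KPCA.C (23 cells) and 334 CPM in KPCA.B (27 cells), against 55.5 CPM in cluster 9.2 of KPCA.C, which was led by Igfbp4 and held Ccr7.

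Itgb1, the partner of many alpha chains, was 490.2, 525 and 829.8 CPM in the tumor epithelial-like cells from KPCA.A, KPCA.B and KPCA.C. KPCA.C was 1.69-fold above KPCA.A and 1.58-fold above KPCA.B, both under the 2-fold limit. Endothelial-like cells of KPCA.A (867 CPM, 789 to 951) and NK-cell-like cells of KPCA.B (866 CPM, 771 to 969.8) were highest in their libraries among classes of at least 50 cells. Of the smaller classes, endothelial-like cells held 951 CPM in KPCA.B (47 cells) and NK-cell-like cells 1158 CPM in KPCA.A (13 cells). Macrophage-like cells had 282 CPM in KPCA.A, 492 CPM in KPCA.B, 340.1 CPM in KPCA.C and 308 CPM in ascites, so KPCA.B was here the highest. Its cluster 10 held 543 CPM, against 295 CPM in cluster 1 of the same library. B-cell-like and plasma-cell-like cells had 63.9 to 90.5 CPM.

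Itgb3, the partner of Itgav known from osteoclasts and from growing vessels, was 157 CPM in the endothelial-like cells of KPCA.A, on 81 UMIs. T-cell-like cells had 115 CPM in KPCA.B and, in KPCA.C, 144 CPM, with 323 and 169 CPM in the Foxp3 cluster. Tumor epithelial-like cells had 56.7 CPM in KPCA.A, 25.3 CPM in KPCA.B and, in KPCA.C, 40.2 CPM, and fibroblast-like cells 45.4, 39.4 and 23.1 CPM. B-cell-like cells had 39.8 CPM in KPCA.B and, in KPCA.C, 34.9 CPM, NK-cell-like cells of KPCA.B 37.3 CPM and neutrophil-like cells of KPCA.A 44.7 CPM, each with an interval that overlapped that of the fibroblast-like cells in its library. Macrophage-like cells were close to nothing, at 3.97, 3.26, 2.47 and 1.38 CPM in the 3 tumors (in the order KPCA.A to KPCA.C) and in ascites. Duct epithelial-like cells had 0 UMIs in 79 cells, which allows up to 4.02 CPM.

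Itgb5, the other beta partner of Itgav, was the receptor subunit most tied to macrophage-like and tumor epithelial-like cells. Macrophage-like cells held 204 CPM in KPCA.A, 118 CPM in KPCA.B and, in KPCA.C, 153 CPM. Tumor epithelial-like cells held 100.2, 151 and 104 CPM, so KPCA.B was lowest in the first class and highest in the second. Fibroblast-like cells held 63.5, 58.7 and 82.9 CPM, with 201 CPM in cluster 8.6 and 174 CPM in cluster 8.9, clusters that were also high in Spp1, but likewise 186 CPM in cluster 8.8 of KPCA.B, where Spp1 was 8.88 CPM. Lymphocyte classes were at 1.89 to 15.7 CPM. In ascites macrophage-like cells Itgb5 was 14.1 CPM (11.4 to 17.3), far below every tumor.

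Itga4, the leukocyte alpha chain whose pair with Itgb1 is known as VLA-4, was an immune-cell gene here. NK-cell-like cells of KPCA.B had 679.9 CPM (596 to 772), T-cell-like cells 503 and 568 CPM in KPCA.B and KPCA.C, dendritic-cell-like cells of KPCA.C 284 CPM and B-cell-like cells 229.8 and 259 CPM. Plasma-cell-like cells of KPCA.B had 205 CPM, and their interval overlapped that of the B-cell-like cells. Macrophage-like cells had 107, 142 and 88.8 CPM in the tumors and 41.7 CPM in ascites, with 808 CPM in the monocyte-gene cluster 11.6. Tumor epithelial-like cells were at 0.908, 2.75 and 0.972 CPM. Duct epithelial-like and endothelial-like cells of KPCA.A had 0 UMIs, which allows up to 4.02 and 5.81 CPM.

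**Figure D4:**
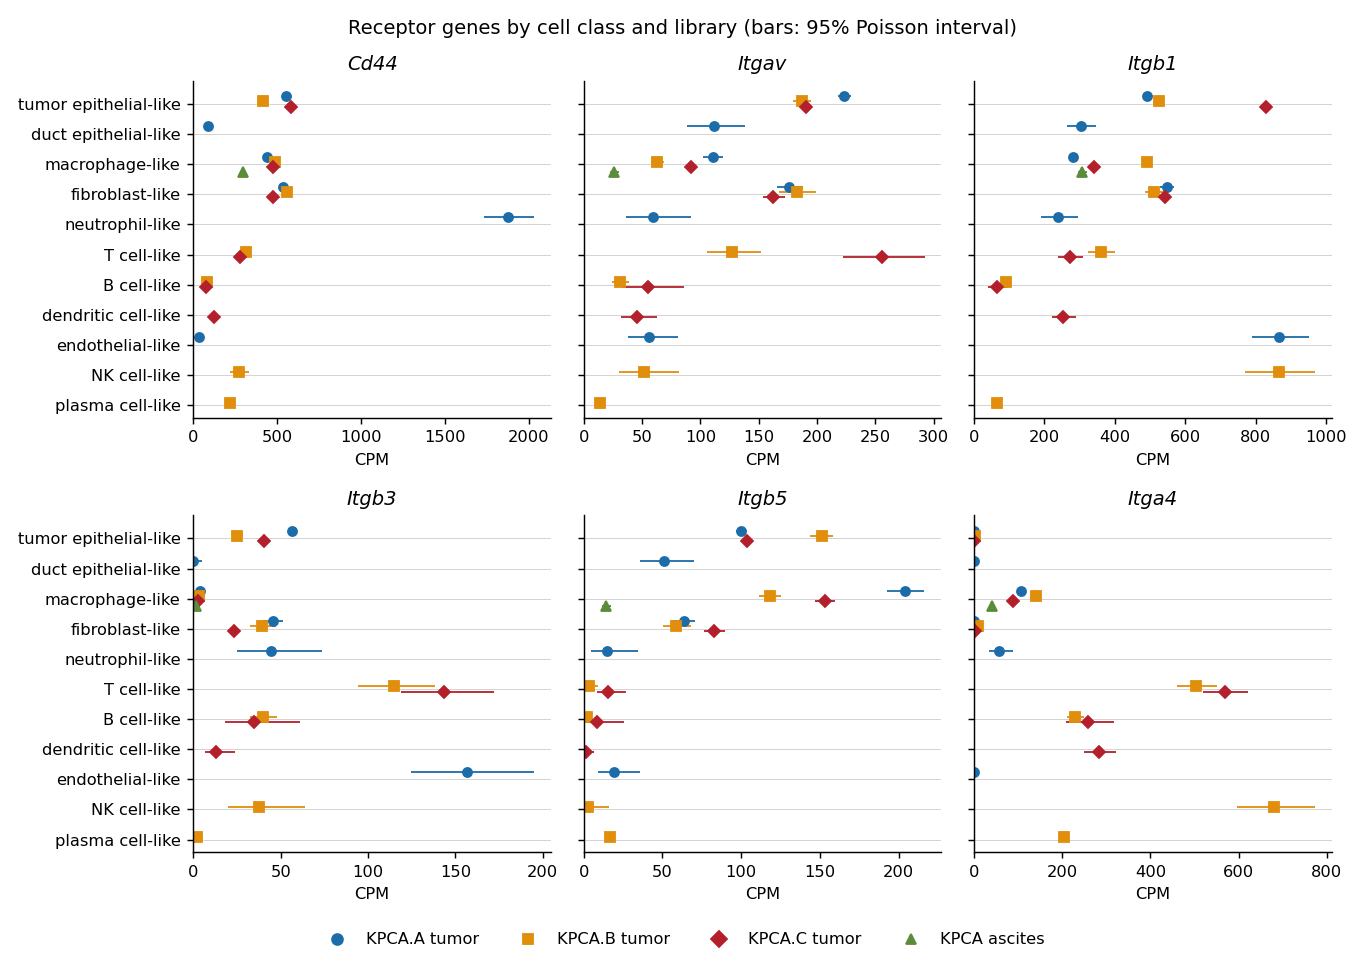
Level in CPM (linear axis, with its own range in each panel) of the 6 receptor genes, 1 panel a gene, by cell class and library, with 95% Poisson intervals. Itga4 separates the immune classes from the tumor epithelial-like cells, which lie at 0.908 to 2.75 CPM, and Itgb5 of ascites macrophage-like cells lies at 14.1 CPM, below the 118 to 204 CPM of the tumors.

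Members called between the tumor lines were counted beside all genes. Between KPCA.C and KPCA.B tumor epithelial-like cells, Spp1 was called higher and Itga4 lower, out of 7 members counted, where 11.4% of all genes were called higher and 13.1% lower. Between KPCA.A and KPCA.B, Spp1 and Itgb3 (2.25-fold, 1.98 to 2.55) were called higher and Itga4 lower, against 6.99% and 7.69% of all genes. The Itga4 calls rest on 28 to 61 UMIs per library at levels under 3 CPM. Between KPCA.C and KPCA.A, 0 of 7 members were called, against 8.32% of genes higher and 8.87% lower. As there was no replicate, these counts have no test and no p-value. The median of the 7 members on the log2(CPM + 5) scale was 0.48 for KPCA.C over KPCA.B, 0.25 for KPCA.A over KPCA.B and 0.05 for KPCA.C over KPCA.A, where the median of all genes was -0.07, -0.03 and -0.04.

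In macrophage-like cells, Spp1 was the only member called between lines. It was higher in KPCA.C and in KPCA.A, each against KPCA.B, where 6.09% and 5.17% of genes were called higher and 5.79% and 5.26% lower. Between KPCA.C and KPCA.A 0 of 7 members were called, against 2.71% of genes higher and 2.02% lower. None of the 6 receptor genes was called in these 3 comparisons. The nearest values were those of KPCA.A against KPCA.B. Itgav was 1.75-fold higher in KPCA.A (1.56 to 1.96) and Itgb5 1.73-fold higher (1.59 to 1.88), while Itgb1 was 1.74-fold lower (1.65 to 1.85).

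In fibroblast-like cells, Spp1 was again the only member called. It was higher in KPCA.C (5.61% of genes higher, 4.25% lower) and in KPCA.A (4.9% and 3.47%), each against KPCA.B. Between KPCA.C and KPCA.A 0 of 6 counted members were called (2.11% and 1.93%), with Itgb3 nearest at a ratio of 0.509 (0.417 to 0.621). In T-cell-like cells, Spp1 and Itgav (2.01-fold, 1.60 to 2.53) were called higher in KPCA.C than in KPCA.B, against 2.76% of genes, with 2.72% lower. The T-cell-like cells of KPCA.B were mainly in cluster 9.0, led by the natural killer receptor gene Klra7, and in 9.4, led by Gzma and Cd8b1, and those of KPCA.C in 9.3 and 9.2. In B-cell-like cells Spp1 was called higher in KPCA.C than in KPCA.B, against 2.29% of genes higher and 5.86% lower. The keratin share was higher in KPCA.C than in KPCA.B in both lymphocyte classes, at 2.26% against 0.593% in T-cell-like and 1.06% against 0.434% in B-cell-like cells, and its part in the Spp1 calls was not tested.

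Ascites macrophage-like cells were high in the ligand and low in 3 receptor chains. Spp1 was called higher against KPCA.A and KPCA.B, where 8.86% and 8.07% of genes were called higher, and not against KPCA.C (7.22%). Itgav, Itgb5 and Itga4 were called lower against each tumor, 3 of 6 members counted in each case. As 41.5%, 43.3% and 40.6% of all genes were called lower against KPCA.A, KPCA.B and KPCA.C, a count of that size is no more than the background. The median of all genes was -0.59, -0.60 and -0.52 on the log2(CPM + 5) scale, and that of the counted members -0.91, -0.91 and -0.83. Of the 3 genes called lower, Itgb5 differed most, at 14.5-fold (11.7 to 18.1), 8.39-fold (6.77 to 10.49) and 10.9-fold (8.81 to 13.5) below KPCA.A, KPCA.B and KPCA.C. How many of all genes differed by as much is not given here. Itgav was 4.20-fold, 2.395-fold and 3.49-fold lower, and Itga4 2.57-fold, 3.39-fold and 2.13-fold lower. Cd44 and Itgb1 lay nearer to the tumors, at 0.610 to 0.677 and 0.626 to 1.09 of their levels, and their direction depended on the scaling: with median-of-ratios scaling Cd44 was at log2 ratios of 0.20, 0.023 and 0.0023 and Itgb1 was also above each tumor. That scaling left 6 of the 9 receptor calls, as Itga4 came to -0.60 against KPCA.A and -0.42 against KPCA.C, and Itgav to -0.52 against KPCA.B. The matrices of ascites and tumors were written by different versions of the counting software, and the ascites cells had fewer UMIs, so tissue and processing cannot be told apart.

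**Figure D5:**
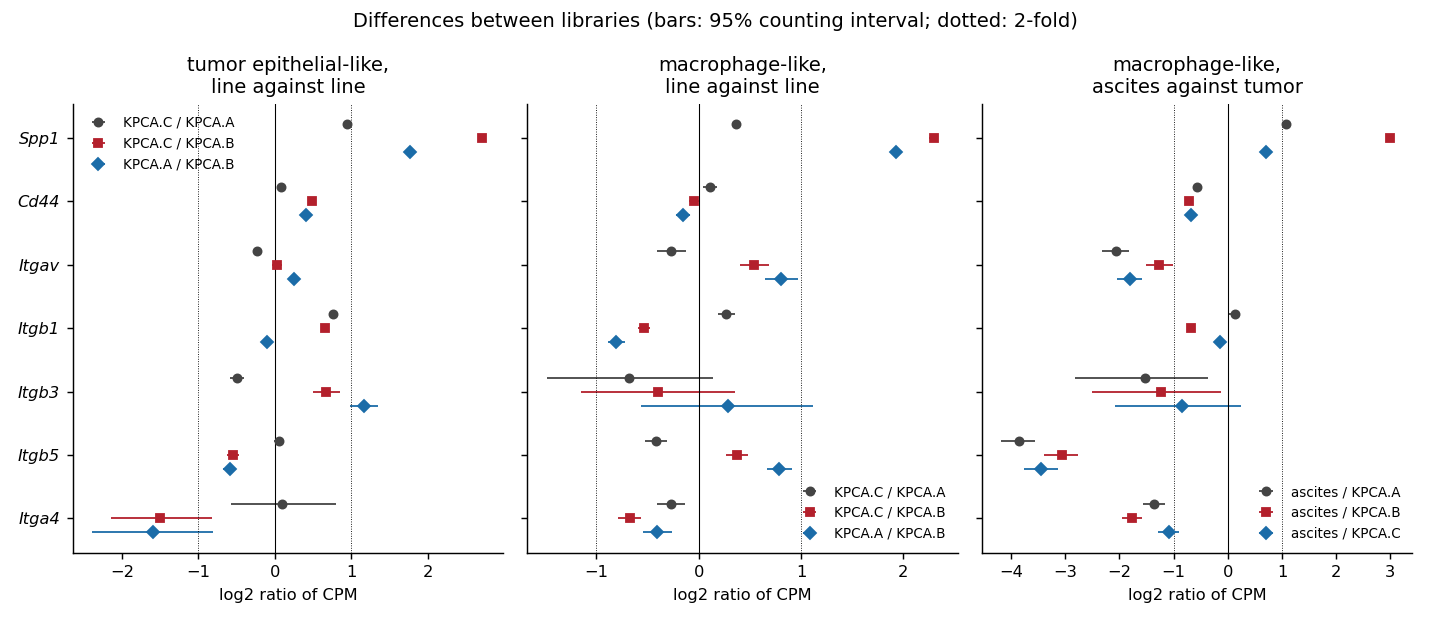
Ratio of levels between libraries (log2 axis) for the 7 genes, in tumor epithelial-like and macrophage-like cells between lines and in macrophage-like cells of ascites against each tumor, with exact conditional 95% intervals and dotted lines at 2-fold. Spp1 lies to the right of the 2-fold line in every comparison with KPCA.B, and in the ascites panel Itgb5 lies farthest to the left, at 8.39-fold to 14.5-fold lower.

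The relatives of Spp1 in the SIBLING family were at or near 0. Ibsp, Dmp1, Mepe and Dspp were at most 0.816 CPM in the tumor epithelial-like, the macrophage-like and the fibroblast-like class, and 0 of the 4 reached the count minimum in any comparison. Of 6 other integrin chains reported in osteopontin receptors, 5 were counted in tumor epithelial-like cells. Itga5, the fibronectin receptor's alpha chain, was 91.98, 47.2 and 101.2 CPM in KPCA.A, KPCA.B and KPCA.C there, called higher in KPCA.C than in KPCA.B. The beta chain Itgb6 was 10.9, 9.30 and 0.622 CPM and Itga9 6.29, 2.92 and 1.20 CPM, both called lower in KPCA.C than in either other line. In macrophage-like cells 3 of the 6 were counted. Itgb7, which also pairs with Itga4, was 20.2, 58.9 and 23.8 CPM in the tumors and 10.9 CPM in ascites, and Itga9 was 53.7, 16.3 and 49.96 CPM and 2.30 CPM in ascites. In fibroblast-like cells Itga5, Itga9 and Itgb8 were the 3 counted, and all 3 were called higher in KPCA.C than in KPCA.B, as were 5.61% of all genes.

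Other ligands of the RGD-binding integrins were present beside Spp1. Of 14 genes, 13 were counted between KPCA.C and KPCA.B in tumor epithelial-like cells, with 5 called higher and 1 lower, where all genes had 11.4% and 13.1%. Fibronectin (Fn1) was 2855, 1832 and 2502 CPM in KPCA.A, KPCA.B and KPCA.C, thrombospondin 1 (Thbs1) 70.6, 250.5 and 75.3 CPM, Ccn2 198, 123 and 104 CPM and tenascin C (Tnc) 152, 45.5 and 181 CPM. Thbs1 was called lower and Tnc higher in KPCA.C against KPCA.B. In macrophage-like cells Thbs1 was 536, 266 and 1539.9 CPM and 3304 CPM in ascites, so that, like Spp1, it was highest in ascites, where it was the single gene of the list called higher (7.22% to 8.86% of all genes against the 3 tumors). Fn1 went the other way there, from 3934, 4180.5 and 5279 CPM in the tumors to 1831 CPM. The old symbols Cyr61 and Ctgf were not found in the gene tables, which list Ccn1 and Ccn2. Of the ligands of Itga4, Vcam1 was 140.3, 324 and 242 CPM in tumor epithelial-like cells and 34.5, 32.9 and 26.8 CPM in macrophage-like cells, with 6.59 CPM in ascites. Of the 5 alpha4 ligands, 4 were counted between KPCA.C and KPCA.B in tumor epithelial-like cells, with 2 called higher (Jam2 and Emilin1) and 0 lower, beside the same 11.4% and 13.1% of all genes.

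Of 10 proteases reported to cut osteopontin, thrombin (F2) and plasminogen (Plg) were at or near 0 in the 3 main classes. The lysosomal proteases Ctsb and Ctsd were 1718 to 2751 CPM and 1657 to 2273 CPM in tumor macrophage-like cells, and 1383 and 1894 CPM in ascites. Mmp12, the macrophage elastase, was 1118, 460 and 513 CPM in KPCA.A, KPCA.B and KPCA.C and 79.1 CPM in ascites. It was called lower in ascites against each tumor, as were 41.5%, 43.3% and 40.6% of all genes. Mmp9 was 49.2, 1.20 and 23.7 CPM and 5.98 CPM. In tumor epithelial-like cells Mmp7 was 78.9, 63.1 and 1.93 CPM, called lower in KPCA.C than in either other line, and 8 of the 10 were counted there against KPCA.B, with 4 higher and 2 lower, against 11.4% and 13.1% of all genes. Of the 3 modifiers of osteopontin, the Golgi kinase Fam20c was 117 to 151 CPM in the macrophage-like cells of all 4 libraries. The crosslinking enzyme Tgm2 was 973, 436 and 1116 CPM and 82.3 CPM in ascites. In tumor epithelial-like cells both counted modifiers, Fam20c and Tgm2, were called lower in KPCA.C against KPCA.A (8.87% of all genes) and against KPCA.B (13.1%).

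Around Cd44, Has2, which makes hyaluronan, was 87.1, 16.6 and 54.8 CPM in the tumor epithelial-like cells from KPCA.A, KPCA.B and KPCA.C. Of the 10 genes of hyaluronan synthesis and other Cd44 partners, 6 were called higher and 1 lower in KPCA.C against KPCA.B, where 11.4% and 13.1% of all genes were. The proteoglycan gene Srgn was 2575, 1323 and 4259 CPM in macrophage-like cells and 9490.1 CPM in ascites, where it alone of 7 counted genes was called higher against each tumor, beside 7.22% to 8.86% of all genes. Cd74, a partner of Cd44 in binding Mif, was 10608, 9772 and 6201 CPM in tumor macrophage-like cells and 669 CPM in ascites. Downstream of the integrins, of 18 adhesion adaptor genes, 3, 2 and 2 were called higher and 1, 1 and 1 lower in tumor epithelial-like cells for KPCA.C over KPCA.B, KPCA.C over KPCA.A and KPCA.A over KPCA.B. Of all genes 11.4%, 8.32% and 6.99% were called higher and 13.1%, 8.87% and 7.69% lower, so these counts are near the background. Fermt1, the epithelial kindlin, was 117, 225 and 25.9 CPM, called lower in KPCA.C against both. Fermt3, the blood-cell kindlin, was 201, 208 and 217 CPM in tumor macrophage-like cells and 102.9 CPM in ascites.

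On the log2(CPM + 5) scale, the medians of these lists for KPCA.C over KPCA.B in tumor epithelial-like cells were -0.01 for the other integrin chains, 0.48 for the RGD ligands, 0.73 for the alpha4 ligands, 0.32 for the proteases, 0.56 for the Cd44 partners, 0.31 for the adaptors and -1.58 for the modifiers, against -0.07 for all genes. For macrophage-like cells of ascites over KPCA.C the same medians ran from -1.07 for the other integrin chains to -0.63 for the alpha4 ligands, all below the -0.52 of all genes.

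Genes that mark Spp1-high macrophages in other tumors did not all follow Spp1. Of 20, 19 were counted between KPCA.C and KPCA.B in macrophage-like cells, with 5 called higher (Bnip3, Vegfa, Thbs1, Vcan and Cxcl2) and 3 lower (Gpnmb, Lpl and Cd36), against 6.09% and 5.79% of all genes. Arg1, the arginase of alternatively activated macrophages, was 4764, 4926 and 8193 CPM in KPCA.A, KPCA.B and KPCA.C and 4828 CPM in ascites, and Apoe was 5068, 3156 and 4081 CPM and 1241 CPM. Vegfa, a gene raised by low oxygen, was 229.5, 15.3 and 269 CPM and 3.68 CPM in ascites. So ascites macrophage-like cells had the highest Spp1 with the lowest Vegfa, and Trem2 was 196, 165 and 186 CPM in the tumors and 36.3 CPM in ascites. Against KPCA.C, 4 of the 19 counted genes were called higher in ascites and 10 lower, where 7.22% of all genes were higher and 40.6% lower, with a median of -0.90 on the log2(CPM + 5) scale against -0.52 for all genes. For KPCA.C over KPCA.B the median was 0.46 against -0.07.

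Across the 20 class and library units, the genes closest in pattern to Spp1 were Cystm1 (Pearson r = 0.87), Vapa (0.86), Paip1 (0.85), Sphk1 (0.84) and Casp6 (0.83), out of 7681 genes ranked. Cd44 was closest to Grina (0.87) and Nfil3 (0.78). The closest genes were Dlg4 (0.88) and Wls (0.87) to Itgav, Ahnak (0.88) and Kif1c (0.88) to Itgb1, Zeb1 (0.87) and Plekhg2 (0.83) to Itgb3, and Etv1 (0.86) and Fn1 (0.85) to Itgb5. Itga4 had the tightest neighbors, Arhgap15 (0.98) and Dock2 (0.97). The units share libraries and depth, so these values describe the table and carry no p-value.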

How the data were processed

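The deposited matrices hold whole-number UMI counts, made by the authors with Cell Ranger and already limited to barcodes called as cells. The submitters' processing notes name version 3.1.0 and build mm10, while the matrix headers name 4.0.0 (tumor libraries) and 3.0.2 (ascites library). The labels' protocol names the 3′ v2 chemistry. The cell barcodes and gene names deposited beside the counts were used as labels only. The gene tables were matched by gene identifier, and the 30406 genes in all 4 were used. Members, markers and listed genes were then picked by symbol.

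Barcodes passed with 300 genes, 500 UMIs and a mitochondrial share of 15% or less, which left 11253 of 16289. A high mitochondrial share was the commonest reason for loss and took 53.1% of the barcodes of KPCA.A against 5.42% in ascites. Scrublet, run through scanpy, marked 22 cells (0.196%), so the caller did not work and all were kept. Counts scaled to 10000 per cell were log-transformed, and 2000 variable genes, 30 principal components, 15 neighbors and Leiden resolution 1 gave 74 clusters. They were named from marker lists, and 896 cells were left unnamed. Spp1 was among the variable genes and the receptor genes were not. UMIs were summed by class and library. CPM has exact Poisson intervals, ratios have exact conditional intervals and shares have Clopper-Pearson intervals. Limits for a gene at 0 take 3 counts, and medians of lists use log2(CPM + 5). UMI counts of a class set this precision, not the depth per cell. The ascites library had the fewest UMIs, but Spp1 in its macrophage-like cells rests on 25618 UMIs. The same class holds 10829, 4512 and 34107 Spp1 UMIs in KPCA.A, KPCA.B and KPCA.C. With 1 library per group no test was possible. The counting steps were tested on simulated data.

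The members and lists were chosen with earlier results of these data known. Genes named outside the 7 are the closest by correlation, the leading genes of clusters, and up to 4 per list with the highest CPM in the class described. Has2, Vegfa, Trem2, F2, Plg, Itgb8, Jam2, Emilin1, Bnip3, Vcan, Cxcl2, Gpnmb, Lpl, Cd36 and the tumor and matrix genes shown beside Spp1 (Krt8, Krt18, Cdkn2a, Epcam, Col3a1, Dcn, Postn) were named after their values were seen. The alternatives were other cell filters, clusterings, scalings, removal of doublet scores and of tumor-cell RNA. Positions and the sequence come from GRCm38 with GENCODE vM21. Versions were scanpy 1.11.5, leidenalg 0.10.2, igraph 0.11.9, scipy 1.17.1, numpy 2.4.6, pandas 2.3.3, matplotlib 3.10.9 and python 3.11.15.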

Additional observations from a re-analysis of the deposited data

Results flagged for a closer look

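Some receptor genes differed between lines in opposite directions in different cell classes, with counting intervals on opposite sides of no change. Each direction was kept under the 8 alternatives run for these genes. The settings that kept or left out single clusters were run for Spp1 only, so the part of cluster makeup in these directions was not tested. Each group is 1 library, and the difference between classes was not tested. All values are log2 ratios.

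Itgb5, the beta partner of Itgav, did so most often. In KPCA.C against KPCA.B the tumor epithelial-like value was -0.54, the macrophage-like value 0.37 and the fibroblast-like value 0.50. In KPCA.A against KPCA.B it was -0.59 in tumor epithelial-like cells and 0.79 in macrophage-like cells. In KPCA.C against KPCA.A the macrophage-like value was -0.42 and the fibroblast-like value 0.39.

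Itgb1 in KPCA.C against KPCA.B had a tumor epithelial-like value of 0.66, a macrophage-like value of -0.53 and a fibroblast-like value of 0.089. Itgb3 in the same pair was 0.67 in tumor epithelial-like and -0.77 in fibroblast-like cells. Itgav was 0.54 in macrophage-like and -0.17 in fibroblast-like cells. Cd44 was 0.49 in tumor epithelial-like and -0.23 in fibroblast-like cells, and in KPCA.C against KPCA.A it was 0.080 and -0.17. Each of these values lies under 2-fold.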

How the results depend on the processing

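The log2 ratios of Spp1 are given in the order KPCA.C to KPCA.A, KPCA.C to KPCA.B, KPCA.A to KPCA.B for lines, and against KPCA.A, KPCA.B, KPCA.C for ascites. As reported they were 0.94, 2.71 and 1.77 in tumor epithelial-like cells, 0.37, 2.30 and 1.93 in macrophage-like cells and 1.07, 3.001 and 0.70 for ascites. The values below left their counting interval, and the cause was not tested. With the stricter filter they were 0.92, 2.65 and 1.72 in tumor epithelial-like cells and 1.19, 3.14 and 0.85 for ascites. The looser filter gave 0.75 for ascites against KPCA.C. Leiden resolution 2 gave 0.43, 2.27 and 1.84, and 1.03 for ascites against KPCA.A. Clustering each library alone gave 0.53 and 2.31 for KPCA.C, and 0.68 for ascites against KPCA.C. Median-of-ratios scaling gave 1.01, 2.92 and 1.88 in tumor epithelial-like cells, 0.43 and 2.39 for KPCA.C in macrophage-like cells and 1.83, 3.74 and 1.38 for ascites. The mean over cells gave 1.02, 2.35 and 1.32, then 0.17, 2.75 and 2.57, then 0.80, 3.37 and 0.63. Taking off tumor-cell RNA, as read from the keratins, gave 0.13, 1.99 and 1.86 in macrophage-like cells and 1.18 and 1.05 for ascites against KPCA.A and KPCA.C. Nothing was taken off the ascites value, so this setting could only raise the ascites ratios. Without the top 5% of doublet scores the values were 0.97, 2.84 and 1.87 in tumor epithelial-like cells and 2.94 for ascites against KPCA.B.

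The shares of Spp1 UMIs of the leading class, with the tumors in the order KPCA.A to KPCA.C and ascites last, were 88.3%, 76.2%, 94.96% and 77.9% with the stricter filter. The looser filter gave 89.9% for KPCA.A, 95.1% for KPCA.C and 97.3% for ascites. Leiden resolution 2 gave 72.4% (KPCA.B), 48.8% (KPCA.C) and, for the ascites library, 96.4%, and clustering alone gave 89.9%, 77.3% and 55.1% for the 3 tumors. Without the top doublet scores they were 90.3%, 72.4% and 94.2%. Receptor genes called at 2-fold numbered 3 in tumor epithelial-like cells, and 1 without the top doublet scores. Between lines in macrophage-like cells they numbered 0, and 1 with either other filter. In ascites against the tumors they numbered 9, with 6 under median-of-ratios scaling and 11 with no UMI minimum.

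Chosen after seeing the data: clustering without the 7 genes gave 1.03 for ascites against KPCA.A and shares of 89.8% in KPCA.A and 95.1% in KPCA.C. Counting cluster 7 as tumor epithelial-like gave 89.9%, 77.3% and 95.1%. Leaving out tumor epithelial-like cells with a UMI of Dcn, Lum or Pdgfra (114 of 753, 86 of 346 and 689 of 1002 cells) gave 0.92, 2.89 and 1.98. Cluster 3 alone gave -0.17, 1.16 and 1.33. Macrophage-like cluster 1 alone gave 0.50, 0.61 and 0.11, and leaving out cluster 10 gave 1.70 and 1.34 against KPCA.B. Ascites without cluster 0 gave -1.24, 0.69 and -1.60. Counting cluster 4.1 as macrophage-like gave 1.02, 2.95 and 0.66, and a share of 98.1%. Thinning cells to 1000 UMIs gave 1.02, 2.59 and 1.57, then 0.23, 2.64 and 2.41, then 0.91 and 3.32 for ascites against KPCA.A and KPCA.B.

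Among 549 further values of 69 receptor and fibroblast-like results, 442 stayed in their interval, 97 left it and 10 changed sign. The 10 were Itgb1 in tumor epithelial-like cells, KPCA.A to KPCA.B, at 0.015 with median-of-ratios scaling and 0.11 as mean over cells; Cd44 in macrophage-like cells at -0.066 and 0.13 as mean over cells; Cd44 of ascites at 0.20, 0.023 and 0.0023 and Itgb1 of ascites at 0.060 and 0.53 with median-of-ratios scaling; and Itgb1 in fibroblast-like cells at -0.018 as mean over cells. No paired analysis was possible because each group is 1 library. Depth per cell was lowest in ascites. Itgb3 rests on 9 UMIs in its macrophage-like cells, at 1.38 CPM, against 23 UMIs at 3.97 CPM in those of KPCA.A.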
